A study of Mus musculus with 6 samples.

Results

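The 9 genes of megakaryocytes and platelets followed here were measured on expression arrays of mouse tibial cartilage: Pf4, Ppbp, Gp1ba, Gp1bb, Gp9, Gp6, Itga2b, Treml1 and Vwf. They were taken by gene symbol, as every non-control probe whose RefSeq accession belongs to a listed gene. This gave 11 probes for the 9 genes, out of 55681 non-control probes on the array. Of these, 9 probes for 7 genes exceeded background clearly on 3 or more of the 6 arrays, by the scanner software's own call (well above background), and were tested among 25494 features, and the probes of Gp1ba and Gp6 were not.

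The study compared 3 control mice with 3 ADAM10 flox/flox-Col2a1-Cre mice, called mutants here, all on the C57BL/6 strain, with 1 array per mouse. In the mutants Cre recombinase is driven by the promoter of Col2a1, which is active in chondrocytes and their precursors, and acts on floxed alleles of Adam10. The labels give the controls no genotype beyond "control", and they state no age or sex for either group. Adam10 encodes a membrane protease that sheds the outer parts of many cell surface proteins.

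Megakaryocytes are the large polyploid cells of bone marrow that release platelets into the sinusoids. They carry the adhesion receptors with which platelets bind collagen, von Willebrand factor and fibrinogen, and they fill alpha granules with chemokines and clotting proteins. Tibial cartilage holds no marrow of its own, but it borders on marrow and on invading vessels at the growth plate. The platelet collagen receptor glycoprotein VI, encoded by Gp6, is a known substrate of ADAM10. In mice Pf4 is also transcribed by some macrophages, and Vwf by endothelial cells.

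Promoter sequences are shown for members whose upstream bases lie outside annotated transcripts, because the GATA and ETS families of transcription factors act together at megakaryocyte genes. The sequences are RefSeq's, of the build GRCm38.p6, written 5′ to 3′ on the strand of the gene and ending where the gene or its annotated transcripts begin. RefSeq's table held 8 of the 9 members. Capitals mark 2 kinds of motif, searched on both strands. The GATA motif was AGATAA, with T also allowed as its first letter and G as its last. The ETS motif was AGGAAG, with C also allowed as its first letter. No matches overlapped each other.
Pf4, chr5:90772185-90772434, plus strand: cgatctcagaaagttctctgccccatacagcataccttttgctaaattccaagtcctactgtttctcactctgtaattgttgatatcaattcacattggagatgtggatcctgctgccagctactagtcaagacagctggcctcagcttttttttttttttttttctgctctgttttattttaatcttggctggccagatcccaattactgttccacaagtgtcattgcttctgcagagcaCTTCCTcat
Ppbp, chr5:90768268-90768517, plus strand: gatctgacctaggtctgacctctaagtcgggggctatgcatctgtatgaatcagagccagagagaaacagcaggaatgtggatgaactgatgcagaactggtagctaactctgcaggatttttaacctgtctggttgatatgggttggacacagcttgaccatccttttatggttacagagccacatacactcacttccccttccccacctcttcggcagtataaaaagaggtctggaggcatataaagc
Gp1ba, chr11:70638872-70639101, plus strand: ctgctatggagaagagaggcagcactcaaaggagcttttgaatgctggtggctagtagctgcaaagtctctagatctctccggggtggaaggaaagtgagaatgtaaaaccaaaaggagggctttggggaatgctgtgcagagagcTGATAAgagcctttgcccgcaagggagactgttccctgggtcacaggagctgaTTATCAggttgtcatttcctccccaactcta
Itga2b, chr11:102469884-102470133, minus strand: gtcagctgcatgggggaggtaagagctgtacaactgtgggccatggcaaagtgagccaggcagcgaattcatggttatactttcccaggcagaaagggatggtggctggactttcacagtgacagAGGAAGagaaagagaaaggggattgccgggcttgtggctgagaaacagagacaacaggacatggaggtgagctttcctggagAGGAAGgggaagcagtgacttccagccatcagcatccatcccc
Treml1, chr17:48359666-48359915, plus strand: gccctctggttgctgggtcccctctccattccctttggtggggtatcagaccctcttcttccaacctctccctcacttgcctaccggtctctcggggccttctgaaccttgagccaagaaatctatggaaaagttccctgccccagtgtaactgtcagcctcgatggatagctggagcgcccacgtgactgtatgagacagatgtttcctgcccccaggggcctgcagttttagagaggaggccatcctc

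Within the 250 bases before the start, 3 of the 8 members held a GATA motif, against 26.5% of all 32851 promoters in the table, and 5 held an ETS motif, against 39.2%. Both kinds stood together at 2 members, Gp1ba and Gp1bb, against 9.2% of all promoters. Gp1ba held 3 GATA motifs. Those printed begin 104 and 51 bases before the start. The third begins 23 bases before it, so that its first 3 bases end the printed sequence in lower case. Its other bases, and an ETS motif that begins 16 bases before the start, lie in the 20 bases that overlap an annotated Gp1ba transcript and are not printed. Pf4 held an ETS motif beginning 9 bases before the start, and Itga2b held 2, beginning 125 and 43 bases before it. Neither motif was found in these letters at Ppbp or Treml1. The other matches were an ETS motif at Gp9, a GATA motif at Gp6, and 1 of each at Gp1bb. The windows of Gp9 and Gp6 lie wholly or partly in annotated transcripts of those genes, and that of Gp1bb lies wholly inside Septin5. These matches are descriptions of the letters and do not show that a factor binds.

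The arrays are Agilent 1-colour arrays. Values are given as the processed signal in intensity units, or as the log2 of that signal relative to the 75th percentile of its array. On each array 62.4% to 65.4% of spots passed the call well above background, and no member spot was an outlier or saturated. The 6 arrays shared 1 slide and 1 scan. On the first principal component, with 44.6% of the variance, control 1 (-55.3) and mutant 2 (71.0) stood at the ends and the other 4 arrays lay between -14.0 and 15.2. Adam10, measured by 1 probe whose position relative to the floxed part is not given, had log2 signals of 1.61, 1.58 and 1.21 on controls 1 to 3 and 0.15, -1.70 and 0.31 in mutants 1 to 3. Of 12 cartilage markers all 12 were well above background on every array. Their summed level was 2815 to 3337 times the 75th percentile in controls and 3065 to 3984 in mutants. Cartilage was therefore present on every array, but these markers cannot show how much marrow or other tissue came with it. Xist, a transcript of females, was high on control 1 and mutant 3 (log2 signals 1.88 and 2.05), intermediate on mutant 1 (-3.66) and below -7 on the other 3 arrays. The Y-linked gene Ddx3y was at 2.02 to 2.15 on controls 2 and 3 and mutants 1 and 2, at -7.34 on control 1 and at -4.57 on mutant 3.

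Of the 7 tested members 6 had a lower mean in mutants than in controls (Pf4, Ppbp, Gp9, Itga2b, Treml1 and Vwf), and Gp1bb had a slightly higher one. Below 0 were 40.0% of all tested features. In this bulk tissue fewer cells of a type and less transcript per cell cannot be told apart. The median difference of the 7 was -0.67 on the log2 scale, and that of all features was 0.04. At a limma p adjusted over all features below 0.05, 0 members were called, where 0% of all features were called (0 of 25494). With array weights in limma 4 features were called, again with 0 members. At an unadjusted p below 0.05 there were also 0 members, against 1.89% of features lower and 1.55% higher in mutants (3.44% in either direction). For 0 members did all mutant arrays lie beyond all control arrays, against 3.75% of features lower and 5.19% higher (8.95% in either direction). The adjusted p was 0.987 for each of the 7. The members that passed the filter are those with enough signal on 3 arrays, so these counts do not speak for Gp1ba and Gp6.

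The counts and the median moved with the arrays and probes that entered. Without mutant 2, 4 of the 7 were below 0 and the median was -0.21, where 46.6% of all features were below 0. With control 1 left out the median was -0.41, and that of all features was 0.01. With both of these arrays left out 4 members were below 0 and the median was -0.09. In that fit 55.5% of all features were below 0, with a median of -0.02. Without control 3 the median was -1.09, and that of all features was 0.06. Here 3 members (Ppbp, Gp9 and Treml1) had an unadjusted limma p below 0.05. For 4 members every mutant lay below every remaining control. The shares of all features by these measures are not given for this fit, and groups separate more easily with an array fewer. With all arrays kept, the median was -0.25 when probes had to be above background on all 6 arrays, and -0.25 over every passing probe.

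**Figure D1:**
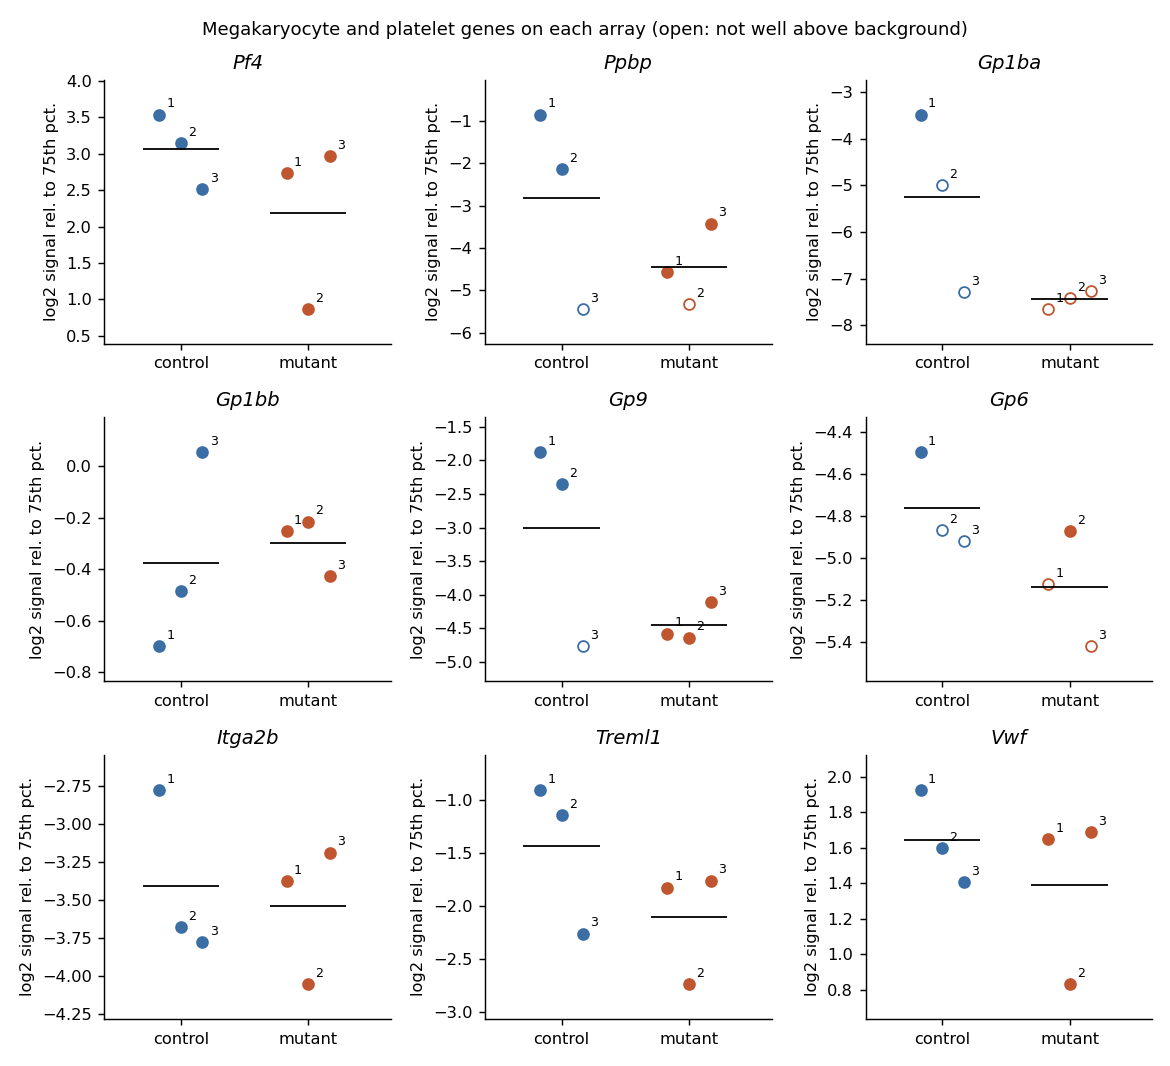
Log2 signal relative to the array's 75th percentile for each of the 9 genes, with control arrays in blue and mutant arrays in orange, the replicate number beside each point, a black line at the group mean, and open circles where the probe was not well above background. The vertical scale differs between genes. Control 1 is the highest array for 6 of the 7 tested genes, and mutant 2 the lowest for 4 of them.

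The chemokines of the alpha granule came first. Pf4 encodes platelet factor 4 (Cxcl4), a heparin-binding chemokine. Its probe read 6873, 4918 and 2916 intensity units on controls 1 to 3, and 4189, 1093 and 3998 in mutants 1 to 3. Mutant 2 was the lowest of the 6 arrays, and mutants 1 and 3 lay between control 3 and control 2. On the log2 scale Pf4 averaged 3.06 ± 0.52 (SD, n = 3) over controls, against 2.19 ± 1.15 (SD, n = 3) over mutants. The difference was -0.87 (SE 0.58, 95% interval -2.28 to 0.53), or 1.83-fold lower, with an unadjusted limma p of 0.181 and a two-sided exact permutation p of 0.4. Without mutant 2 it was -0.21, and without both control 1 and mutant 2 it was 0.02.

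Ppbp encodes pro-platelet basic protein, the precursor of the neutrophil-attracting chemokine Cxcl7, and is the neighbour of Pf4 in RefSeq's gene order. Its signals were 328, 126 and 11.8 on controls 1 to 3 and 26.5, 14.8 and 47.5 in mutants 1 to 3. Control 3 was the lowest of the 6 arrays, so the groups overlapped, and neither control 3 nor mutant 2 was well above background. On the log2 scale the means were -2.81 ± 2.36 (SD, n = 3) and -4.44 ± 0.96 (SD, n = 3). The difference was -1.63 (SE 1.17, 95% interval -4.44 to 1.18), with an unadjusted limma p of 0.208. Since 1 array of each group was not measured above background, no fold is given. Among the 7 genes it spanned the widest range over the arrays, 4.58 log2 units, and moved most when 1 array was left out. The difference was -0.65 without control 1 and -2.94 without control 3. In the latter fit, which leaves out the lowest control, the limma p was 0.00426 unadjusted and 0.662 adjusted. With normexp background correction the difference was -0.95.

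The receptor for von Willebrand factor is a complex of glycoprotein Ib alpha, glycoprotein Ib beta and glycoprotein IX, encoded by Gp1ba, Gp1bb and Gp9. Gp9 gave 161, 109 and 18.7 intensity units on controls 1 to 3 and 26.4, 24.0 and 29.5 in mutants. Controls 1 and 2 were the highest arrays and control 3 the lowest, and control 3 was the only array on which Gp9 was not well above background. The means were -3.00 ± 1.55 (SD, n = 3) and -4.44 ± 0.29 (SD, n = 3) on the log2 scale. The difference of -1.44 (SE 0.73, 95% interval -3.19 to 0.30) had the smallest unadjusted limma p among the members, 0.0907. It was -0.88 without control 1 and -2.33 without control 3, the lowest array (limma p 0.000102 unadjusted, 0.188 adjusted). With normexp background correction and percentile scaling it was -0.76, and the 3 mutants lay below the 3 controls. The limma p there was 0.0164 unadjusted and 0.995 adjusted. The shares of all features are not given for these settings.

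Gp1ba carries the binding site for von Willebrand factor. Its signals were 53.0, 17.5 and 3.27 on controls 1 to 3, and 3.15, 3.52 and 3.32 in mutants. It was well above background on control 1 alone. It was not well above background on any mutant array, so those values are no measured level. Against the lowest signal measured above background on those arrays the control mean was not higher, and no fold is given. Controls 1 and 2 had the highest signals, as for Ppbp and Gp9, although control 2 did not clear background.

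Gp1bb, which encodes glycoprotein Ib beta of the same complex, had the opposite order. Its brightest probe gave 365, 397 and 530 intensity units on controls 1 to 3 and 530, 515 and 379 in mutants, so control 1 was lowest and control 3 highest. The difference was 0.08 (SE 0.21, 95% interval -0.43 to 0.59), from -0.38 ± 0.39 (SD, n = 3) to -0.30 ± 0.11 (SD, n = 3), and it was -0.08 without control 1. A second probe with the same accession had log2 signals of -2.12, -1.66 and -0.84 in controls and -1.31, -1.26 and -1.24 in mutants. The third probe, with a different Gp1bb accession, had -2.71, -2.60 and -1.83 in controls and -2.09, -2.18 and -2.14 in mutants. Their differences were 0.27 (SE 0.31) and 0.24 (SE 0.24), and their unadjusted limma p was 0.421 and 0.360. All 3 probes put control 1 lowest, control 2 next and control 3 highest.

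RefSeq places Gp1bb in overlap with Septin5, a gene of the septin cytoskeleton, so Gp1bb signal is uncertain as a measure of platelet transcript. Septin5, named after its values were seen, had log2 signals of 1.06, 1.18 and 1.32 on controls 1 to 3 and 1.35, 1.64 and 1.19 in mutants. Control 1 was the lowest array for Septin5 too. The highest was mutant 2 for Septin5 and control 3 for all 3 Gp1bb probes. The root mean square distance between the centred profiles of Septin5 and the 3 Gp1bb probes was 0.18 to 0.33 log2 units. For Gp1bb and Gp9, which share a receptor complex, it was 1.37. This distance grows with a gene's range, which was 0.75 log2 units for the brightest Gp1bb probe and 2.89 for Gp9. The distances therefore do not show which of the 2 genes Gp1bb resembles more.

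**Figure D2:**
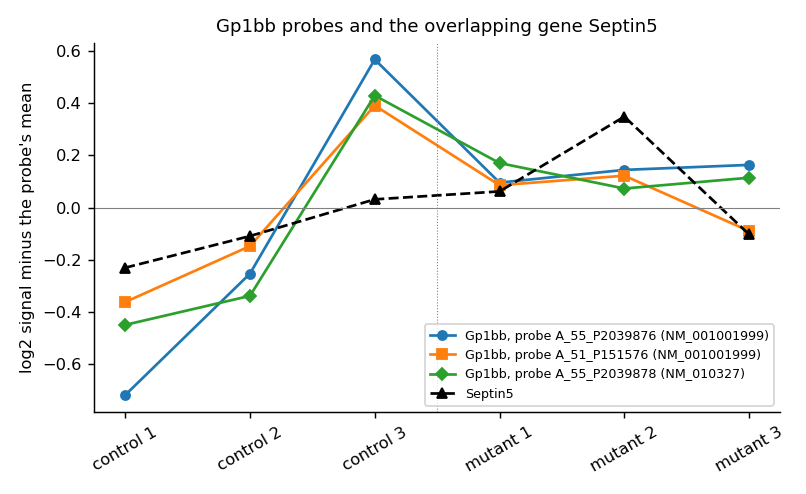
Log2 signal minus the probe's own mean on each of the 6 arrays, for the 3 Gp1bb probes (solid lines) and Septin5 (dashed line). All 4 are lowest on control 1, and the Gp1bb probes are highest on control 3, where Gp9 and Ppbp are lowest.

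Itga2b encodes integrin alpha IIb (CD41), which with integrin beta 3 forms the platelet fibrinogen receptor. It read 86.7, 43.5 and 37.3 intensity units on controls 1 to 3 and 60.9, 36.0 and 56.0 in mutants. Control 1 was highest, mutants 1 and 3 lay above controls 2 and 3, and mutant 2 was lowest. The difference was -0.13 (SE 0.34, 95% interval -0.95 to 0.69), from -3.41 ± 0.55 (SD, n = 3) to -3.54 ± 0.46 (SD, n = 3). Its sign was not stable: it was 0.19 without control 1, 0.13 without mutant 2 and 0.45 without both. The last fit was added after the data were seen, and its limma p was 0.0198 unadjusted and 0.544 adjusted. Gp6, the collagen receptor, gave 26.3, 19.1 and 16.9 in controls and 18.1, 20.4 and 11.9 in mutants. It was well above background on control 1 and mutant 2 only, so no difference was tested for this ADAM10 substrate.

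Treml1 encodes TLT-1, a receptor stored in alpha granules and brought to the platelet surface on activation. Its signals were 317, 253 and 106.8 on controls 1 to 3 and 178, 89.9 and 151 in mutants. Controls 1 and 2 lay above every mutant, and control 3 lay between mutant 3 and mutant 2. The means were -1.43 ± 0.73 (SD, n = 3) and -2.11 ± 0.54 (SD, n = 3), which differ by -0.67 (1.60-fold lower, SE 0.43, 95% interval -1.70 to 0.35). The unadjusted limma p was 0.161 and the exact permutation p was 0.3. Without control 1 the difference was -0.41, without mutant 2 it was -0.36, and without both of these arrays it was -0.09. Without control 3, the lowest control, it was -1.09 (limma p 0.0181 unadjusted, 0.94 adjusted).

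Vwf encodes von Willebrand factor, the ligand of the glycoprotein Ib complex, made in megakaryocytes and endothelium. It read 2254, 1687 and 1353 intensity units on controls 1 to 3 and 1982, 1065 and 1647 in mutants. Mutant 2 was lowest, and mutants 1 and 3 lay within the range of the controls. The difference was -0.25 (SE 0.27, 95% interval -0.91 to 0.40), from 1.64 ± 0.26 (SD, n = 3) to 1.39 ± 0.48 (SD, n = 3). Without mutant 2 it was 0.03, and without both control 1 and mutant 2 it was 0.17.

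**Figure D3:**
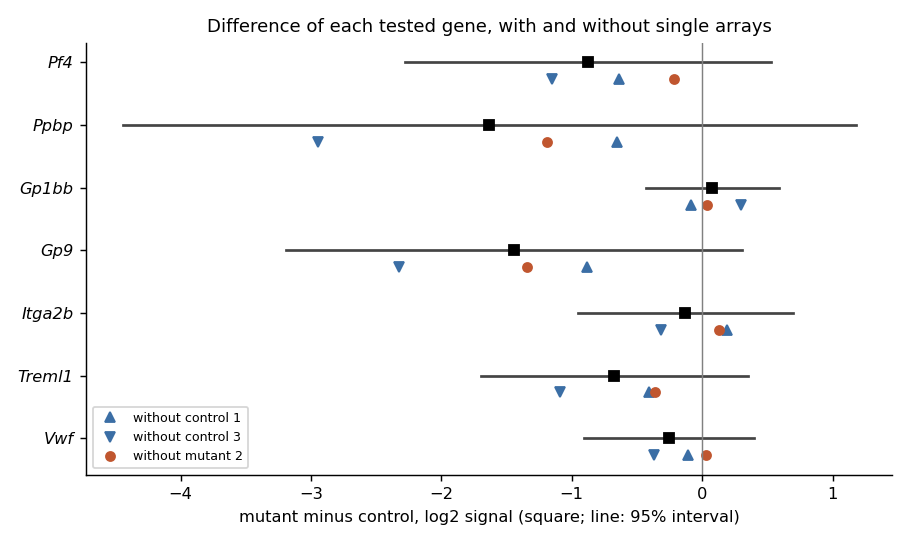
Mutant minus control difference in log2 signal for the 7 tested genes (black squares, with 95% intervals from limma as lines), and the same difference without control 1, without control 3 or without mutant 2 (coloured symbols). Every 95% interval spans 0, and the Ppbp and Gp9 differences range most widely between the fits without control 1 and without control 3.

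The members differed in the size and in part in the order of their array values. Ppbp and Gp9 were high on controls 1 and 2 and lower on control 3 and the 3 mutants, with centred values of 1.37 to 2.77 on those 2 controls and -1.81 to 0.20 elsewhere. Pf4, Itga2b, Treml1 and Vwf had their lowest value on mutant 2, from -1.76 for Pf4 to -0.58 for Itga2b. Pf4 and Ppbp, chemokine genes that neighbour each other, lay 1.18 log2 units apart as centred profiles by root mean square distance. Ppbp and Gp9 lay 0.64 apart, and Itga2b and Vwf, the most alike pair, 0.19. This distance grows with a gene's range. In shape, the 15 pairs of members other than Gp1bb had Pearson correlations of 0.57 to 0.98 over the same 6 arrays, and the 6 pairs with Gp1bb had -0.94 to -0.57. The mean centred value of the 7 members was 1.02, 0.53 and -0.50 on controls 1 to 3, and -0.21, -0.93 and 0.08 on mutants 1 to 3.

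Lists of other cell types moved with these values. Below 0 were 13 of 13 tested erythroid, 10 of 11 neutrophil, 7 of 7 B lymphocyte, 10 of 10 macrophage, 11 of 12 endothelial and 1 of 12 cartilage markers. The erythroid list, with 13 of its 14 genes tested, had a summed level of 541, 252 and 91.7 times the 75th percentile on controls 1 to 3 and of 93.5 to 173 on mutants. Its centred score was 1.64, 0.76 and -1.03 on controls 1 to 3 and -0.83 to -0.15 on mutants. The neutrophil list (11 of 12 tested) had a summed level of 256 to 362 in controls and 214 to 270.0 in mutants, with scores of 1.73, 1.00 and -0.58 on controls 1 to 3. Its brightest gene, Csf3r, the receptor gene for granulocyte colony-stimulating factor, made up most of the sum on each of the 6 arrays and differed by 0.04. The other 10 genes summed to 175, 95.7 and 29.9 on controls 1 to 3 and to 21.4, 25.0 and 37.2 on mutants 1 to 3, and the list's median difference was -1.60. The B lymphocyte list (7 of 8 tested) summed to 2.19 to 9.19 in controls and 1.35 to 2.59 in mutants. In these 3 lists control 3 lay with the mutants, as it did for Ppbp and Gp9. Gp9 lay 0.19 log2 units from the mean B lymphocyte profile, 0.30 from the neutrophil profile and 0.35 from the erythroid profile. Ppbp, with its wider range, lay 0.73, 0.82 and 0.84 from the same 3 profiles. Their part in the differences of Ppbp, Gp9 and Treml1 was not tested.

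The macrophage, endothelial, and mast cell and basophil lists had their lowest score on mutant 2, as did Pf4, Itga2b, Treml1 and Vwf. The macrophage list (10 of 12 tested, with the scavenger receptor gene Cd163 above background on 0 arrays) summed to 30.6 to 38.9 in controls and 8.16 to 27.9 in mutants, with a score of -1.58 on mutant 2. The endothelial list (12 of 12 tested) summed to 55.1 to 71.0 in controls and 28.6 to 66.3 in mutants, with a score of -1.22 on mutant 2. Pf4 lay 0.27 from the mean macrophage profile, 0.32 from the endothelial and 0.40 from the mast cell and basophil profile. From the endothelial profile Vwf lay 0.30 and Treml1 0.33. These distances do not single out a cell type for a gene. The mast cell and basophil list (4 of 7 tested, with the IgE receptor genes Fcer1a and Ms4a2 above background on 0 arrays) summed to 1.51 to 3.50 in controls and 0.969 to 2.27 in mutants, with a score of -1.54 on mutant 2. Cartilage markers had the reverse order, with a score of -0.36 on control 1 and 0.40 on mutant 2, and Gp1bb lay 0.19 from their mean profile. The part of these cells in the members' values was not tested.

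**Figure D4:**
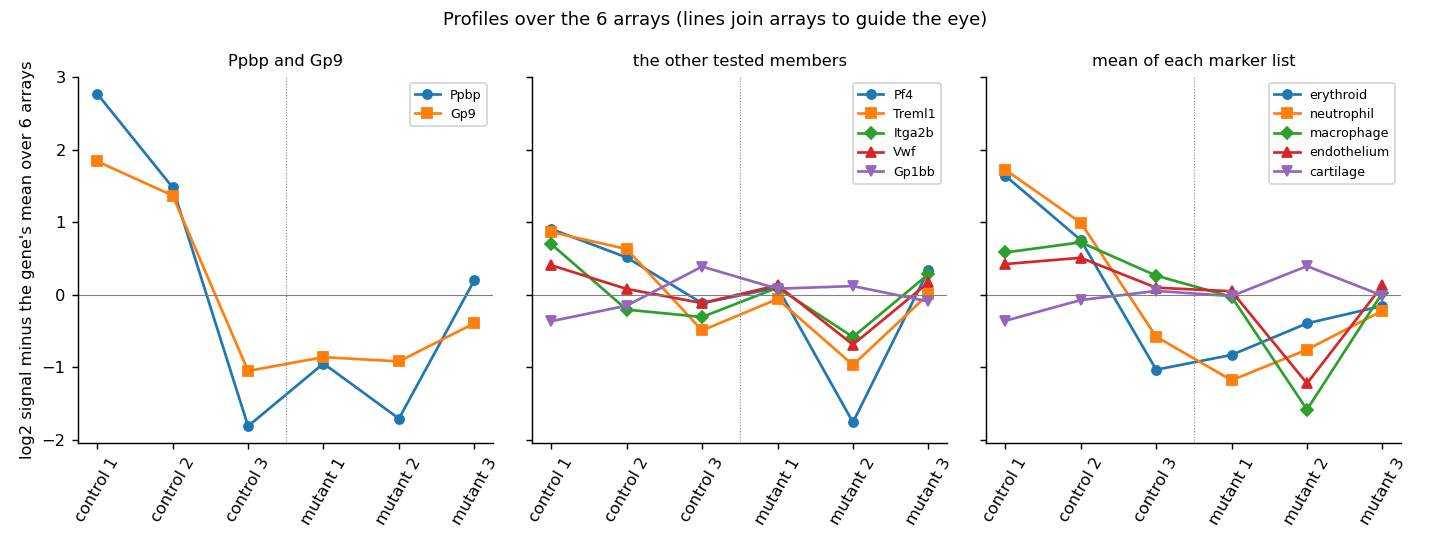
Log2 signal minus the gene's own mean over the 6 arrays, for Ppbp and Gp9 (left), the other tested members (middle) and the mean of each of 5 marker lists (right). A dotted line separates controls from mutants. Ppbp and Gp9 are high on controls 1 and 2 like the erythroid and neutrophil lists, while Pf4 dips on mutant 2 like the macrophage and endothelial lists.

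A further 46 genes of the lineage were listed by role, and 42 of them were tested. Of these 31 were below 0 (73.8%, against 40.0% of all features), and the median was -0.32. That median was -0.16 without mutant 2, -0.12 without both control 1 and mutant 2, and -0.20 and -0.17 with normexp background correction and percentile or quantile scaling. An unadjusted limma p below 0.05 was reached by 5 lower and 0 higher genes, against 1.89% and 1.55% of all features, and 0 passed at the adjusted p. Leaving out control 3 or mutant 3 raised the count of 5 to 13 and 10, and leaving out control 1 or control 2 lowered it to 3 and 1. The shares of 1.89% and 1.55% belong to the fit with all 6 arrays. No such share is given for the smaller fits, so their counts have no background here. All mutants lay below all controls for 8 of the 42, against 3.75% of features. Not tested were the platelet glycoprotein gene Gp5, the inhibitory receptor gene Mpig6b, the protease-activated receptor gene F2rl2 and Cd226, each above background on 0 arrays.

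Among surface receptors 9 of 11 were below 0, with a median of -0.19. P2ry1, an ADP receptor of platelets, had log2 signals of -2.24, -1.92 and -2.02 on controls 1 to 3 and -2.53, -3.19 and -2.58 in mutants. Every mutant was below every control, and the difference was -0.71 (SE 0.21, unadjusted p 0.0132, limma), or -0.40 with normexp background correction. Itgb3, the partner of Itga2b and also an integrin of osteoclasts, differed by -0.94 (SE 0.38, unadjusted p 0.0479), with mutant 2 lowest at 0.46 against 2.14 to 2.46 in controls. Cd9, a tetraspanin of the platelet membrane, differed by 0.16 (SE 0.14), or -0.016 without both control 1 and mutant 2. Itgb3 and Fermt3 are named in view of their values.

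Granule genes were evenly split, with 5 of 10 below 0 and a median of 0.00. Srgn encodes serglycin, the proteoglycan core of secretory granules in many blood cells. It had log2 signals of 0.53, 0.76 and 0.12 in controls and -0.26, -1.51 and -0.36 in mutants, a difference of -1.18 (SE 0.36, unadjusted p 0.0158, limma). Without mutant 2 it was -0.78. Thbs1, the granule protein thrombospondin 1, had a difference of 0.25 (SE 0.20), which was -0.05 without both control 1 and mutant 2.

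Of the genes for cytoskeleton, signalling and eicosanoid synthesis 9 of 11 were below 0, with a median of -0.37. Rasgrp2 encodes CalDAG-GEFI, the exchange factor that activates the integrins of platelets. It had log2 signals of 0.22, 0.69 and 0.32 in controls and -0.52, -1.77 and -0.27 in mutants, so the groups did not overlap. The difference was -1.26 (SE 0.40, unadjusted p 0.0172, limma) and -0.81 without mutant 2. Fermt3, encoding the integrin activator kindlin-3 of blood cells, differed by -1.47 (SE 0.52, unadjusted p 0.0281), with mutant 2 at -4.35 against -1.79 to -1.35 in controls. Tubb1, the beta tubulin of platelets, differed by 0.08 (SE 0.21) and was also chosen after its values were seen.

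The 10 transcription regulators had 8 below 0 and the lowest median of the 4 roles, -0.75, with 0 at an unadjusted p below 0.05 in limma in either direction. Mef2c, the member with the largest value above 0, differed by 0.43 (SE 0.20). The regulators shared with red cells, Gata1, Nfe2 and Gfi1b, were higher on controls 1 and 2 than on every mutant, as Ppbp and Gp9 were. Gata1 had log2 signals of 0.47, -0.18 and -4.11 on controls 1 to 3 and -3.44, -2.49 and -2.93 in mutants, and differed by -1.68 (SE 1.15). These 3 were chosen after their values were seen. Control 3 was below every mutant for each of these 3 genes, for Nfe2 only narrowly (-3.0727 against -3.0707 on mutant 1).

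**Figure D5:**
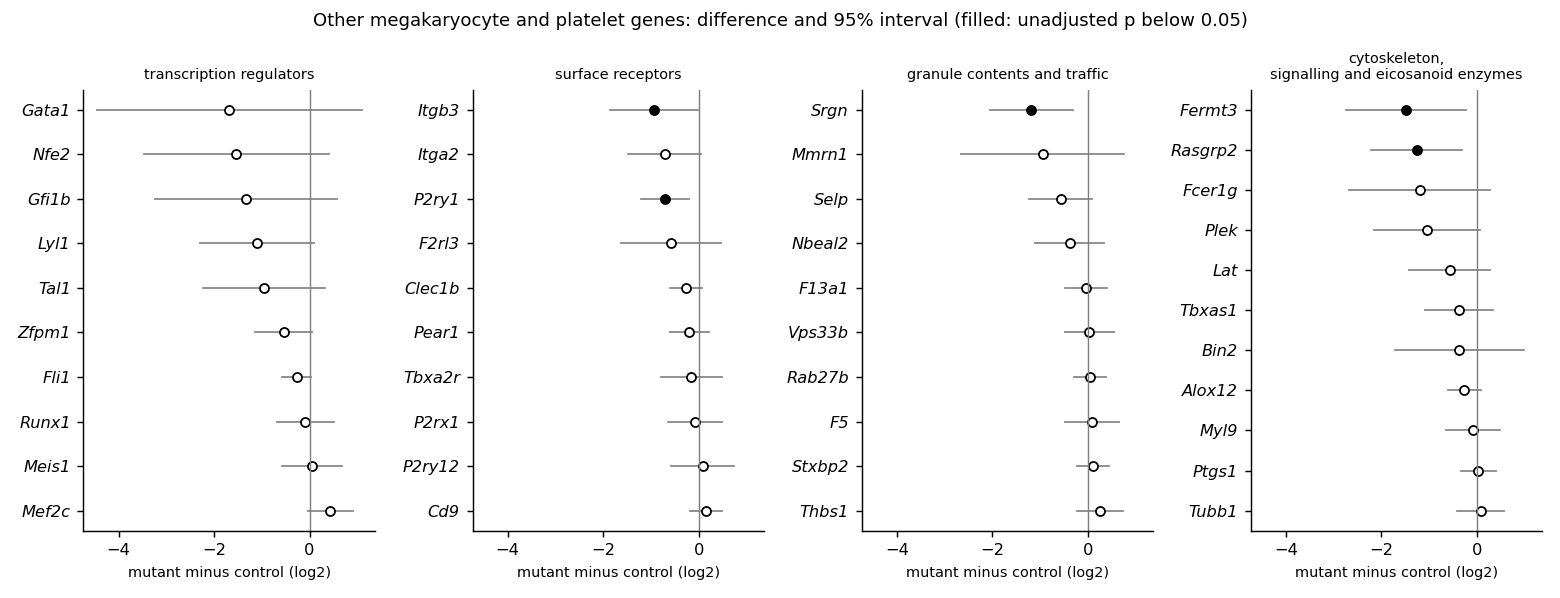
Mutant minus control difference in log2 signal, with 95% intervals from limma, for 41 of the 42 further tested genes of megakaryocytes and platelets in 4 roles. Filled circles mark the 5 genes at an unadjusted p below 0.05 (P2ry1, Itgb3, Srgn, Rasgrp2 and Fermt3), all below 0.

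Of 5 genes for factors that act on megakaryocytes, Thpo (thrombopoietin) and Il6 were above background on 0 arrays. The other 3 were tested, and 2 of them were below 0, against 40.0% of all features. Cxcl12, the chemokine that draws megakaryocytes to the marrow sinusoids, had log2 signals of 3.66, 4.80 and 3.97 on controls 1 to 3 and 2.62, 0.92 and 2.64 in mutants. All mutants lay below all controls, and the difference was -2.08 (SE 0.53, unadjusted p 0.00691, adjusted p 0.987, limma). Il11, a cytokine that promotes platelet production, differed by 0.29 (SE 0.15), by 0.17 without control 2 and by 0.19 with normexp background correction.

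Outside these lists, the genes closest to the mean centred profile of the 7 members were ranked by root mean square distance over the 6 arrays, among 15540 named features. Among the 6 closest were Nat8l (0.173 log2 units), Ccl3 (0.174), Akna (0.175), Gvin1 (0.177) and Aoah (0.181), where the median distance was 0.712. Ccl3 encodes a chemokine of myeloid cells, and Aoah an enzyme that inactivates bacterial lipopolysaccharide. Gvin1 belongs to a family of near-identical interferon-induced GTPases, so its probe is uncertain. On control 1 these 5 genes read 0.70 to 0.89 above their own means, and on mutant 2 0.72 to 1.18 below them. The distances describe 6 arrays on which control 1 and mutant 2 carry most of the spread. The members themselves lay 0.10 (Treml1) to 1.07 (Ppbp) from the same mean profile, with Gp9 at 0.62 and Gp1bb at 0.85. The named genes are therefore near the mean of the members and not near each member.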

How the data were processed

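RNA of tibial cartilage from 3 control and 3 mutant mice was measured, with 100 ng per mouse amplified and labelled with Cy3 per the labels' protocols. The label field names Cy5, and the file headers record 1 channel. Agilent Feature Extraction 10.7.1.1 made the deposited intensity values (submitters' processing notes), and per the file headers the build is mm9. The processed signal was background-subtracted by that software, and the median spot and background brightness were deposited raw. The value table that the authors deposited holds a linear ratio to the array's 75th percentile, as read from its values, in which that percentile was 1 in every column and the column medians were 0.094 to 0.104. It correlated with the processed signal at r = 1.00 on each array. The sources used here do not give the steps behind it.

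Accessions, without version, were matched to RefSeq symbols (GRCm38.p6), which named 27656 of 55681 probes. Control and outlier spots were left out. The log2 of each processed signal had the 75th percentile of non-control spots subtracted, and spots of a probe were averaged. Probes well above background on at least 3 of 6 arrays were kept (35236, of which 8 had only outlier spots on an array), and the brightest represented its gene. Groups were tested in R 4.3.3 with limma 3.58.1 (two-sided, Benjamini-Hochberg over 25494 features, threshold 0.05). The fit had 4 residual degrees of freedom and a prior of 2.42. The files held no mean signal, so normexp (offset 50) used the median signal. The script was tested on simulated data. With 3 arrays against 3, an exact permutation test cannot give a p below 0.1. Levels of different probes are not comparable, and the summed levels of the lists weigh bright probes most. Precision is limited by the number of arrays, by the spread between arrays of a group and, for dim probes, by the background. The members, lists and tests were chosen with earlier results of these data known. The genes named are the 9 members, and of the other lineage genes and megakaryocyte factors up to 4 per direction with the smallest p. Of the 6 genes with the closest profiles 5 are also named, and others are marked as chosen after their values were seen. Of the genes the rule or the plots would show, 1 among these 6 and 1 other lineage gene are not reported here. For marker lists sums are given instead of their brightest genes.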

Additional observations from a re-analysis of the deposited data

How the results depend on the processing

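Settings tried were normexp background correction with percentile or quantile scaling, quantile scaling, the authors' deposited value table, no filter and a filter on all 6 arrays, every passing probe, array weights, a variance trend, the replicate block and leaving out each array. Settings added after seeing the data were leaving out both control 1 and mutant 2, and using only the slide's first row, with the 3 controls and mutant 1. In each of these fits 0 members passed the adjusted threshold. All features called at that threshold numbered 4 with array weights and 0 under the others. Members lower at an unadjusted p below 0.05 numbered 1 with either normexp setting and with array weights, and 0 to 3 when 1 array was left out. Members with all mutants below all controls numbered 1 with either normexp setting and 0 to 4 when 1 array was left out. Those with all mutants above numbered 0 to 1 when 1 array was left out. Without both control 1 and mutant 2, 1 member was higher at an unadjusted p below 0.05 (Itga2b) and 2 lay wholly above the controls. For the 42 tested of the 46 other lineage genes, the count lower at an unadjusted limma p below 0.05 was 9 with either normexp setting. It was 16 with array weights and 1 to 13 when 1 array was left out. The count higher was 1 with either normexp setting, with array weights, with the variance trend and without both arrays, and 0 to 1 when 1 array was left out. The shares of all features are not given for these settings, so these counts and those of the members have no background here. The median difference of the members ran from -1.09 to -0.21 when 1 array was left out, and was -0.25 with the filter on all 6 arrays or every passing probe, -0.38 with array weights and -0.33 for the slide's first row. For the other lineage genes it ran from -0.44 to -0.16 when 1 array was left out. Signs turned for Pf4 (0.021), Gp1bb (-0.12), Itga2b (0.45), Vwf (0.17), Thbs1 (-0.047) and Cd9 (-0.016) without both arrays. With array weights Itga2b was 0.25 and Vwf 0.026, and for the slide's first row they were 0.035 and 0.0064. When 1 array was left out, Gp1bb ran from -0.082 to 0.29, Itga2b from -0.31 to 0.19 and Vwf from -0.40 to 0.026. The cause of these changes was not tested. Deviations of same-numbered arrays correlated at 0.207, 0.0607 and -0.164. These values cannot decide whether the numbers pair the mice, and the main fit used no pairing. With the replicate block the counts of members at either threshold were again 0 and the median of the members was -0.67. Signal near background limits Ppbp, Gp9, Gp1ba and Gp6.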
